A study of Mus musculus with 16 samples.

Results

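Aminoacyl-tRNA synthetases load each amino acid onto its matching transfer RNA, and the RNA of 36 genes that encode them was examined in celiac ganglia and tumors of the Th-MYCN mouse model of neuroblastoma. The genes were listed by symbol: 20 encode enzymes counted as cytoplasmic and 16, with symbols ending in 2, encode mitochondrial enzymes. All 36 were found among the 24411 genes of the count and TPM tables, and all 36 were among the 16665 genes tested. The data were 16 RNA-seq libraries in 5 groups. The ganglia came from 2-week-old mice. Of the transgene-free ganglia (MYCN wild-type), 4 were Runx1t1 wild-type and 3 were labelled Runx1t1 heterozygous. A further 3 ganglia came from MYCN homozygotes with wild-type Runx1t1, and 2 from MYCN homozygotes labelled Runx1t1 heterozygous. The remaining 4 libraries were tumors of MYCN homozygotes with wild-type Runx1t1, whose age was not given in the labels. The transgene is human MYCN under the Th promoter, which drives it in neuroectodermal cells, on a 129/SvJ background. The Runx1t1 allele is an insertional knockout brought in by crossing (CBB6-Runx1t1tm1Fc/H). The human MYCN transcript has no row in the mouse gene table. Whether the ganglia of several animals were pooled was not stated, so the p-values measure the spread between these libraries.

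Each synthetase recognizes a single amino acid and its tRNAs, apart from Eprs, which joins the glutamyl and prolyl activities in a single protein. In the cytoplasm, Dars, Eprs, Iars, Kars, Lars, Mars, Qars and Rars assemble into the multisynthetase complex on the scaffold proteins Aimp1, Aimp2 and Eef1e1, while the other enzymes work outside it. The mitochondrial enzymes are encoded in the nucleus, imported, and charge the tRNAs that translate the mitochondrial genome. Gars and Kars are known to make both a cytoplasmic and a mitochondrial form from the same gene. MYC proteins bind the E-box CACGTG, and the transcription factor ATF4 activates many cytoplasmic synthetase genes through amino acid response elements when amino acids are short.

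RefSeq promoter windows of GRCm38.p6, from 250 bases before to 50 bases after the start, were at hand for 27 of the 36 genes. These were 13 cytoplasmic and 14 mitochondrial genes. Cars, Hars, Lars, Nars, Rars, Vars, Wars, Hars2 and Pars2 had no window and were not searched. The windows were searched on both strands for CACGTG and for TGATGNAA, which is a form of the amino acid response element. CACGTG was found in 7.15% of all 32851 windows and in 5 of the 27 synthetase genes (18.52%). These stretches are shown because they carry that motif, given in capitals, and each is written 5′ to 3′ on the strand of its gene.
Farsb (chr1:78488919-78488948, minus strand): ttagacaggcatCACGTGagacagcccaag
Ears2 (chr7:122067048-122067077, minus strand): cgcgaaggagccCACGTGtgtgtttctagt
Aars (chr8:111033684-111033713, plus strand): agtcaaccctgtCACGTGacactccatgtc
Iars (chr13:49682049-49682078, plus strand): gaccaatcgccaCACGTGttgtttgtaggt
Tars (chr15:11399622-11399651, minus strand): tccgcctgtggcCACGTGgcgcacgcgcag

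TGATGNAA was found in 3.97% of all windows and in 5 of the 27 synthetase genes, all 5 of them cytoplasmic. Where the motif lies on the other strand, its reverse complement is in capitals.
Yars (chr4:129189895-129189924, plus strand): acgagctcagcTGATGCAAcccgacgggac
Gars (chr6:55037960-55037989, plus strand): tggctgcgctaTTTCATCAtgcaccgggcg
Aars (chr8:111033840-111033869, plus strand): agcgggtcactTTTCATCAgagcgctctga
Iars (chr13:49682126-49682155, plus strand): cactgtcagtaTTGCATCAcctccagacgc
Tars (chr15:11399655-11399684, minus strand): caggagtcccgTTGCATCAgctggttagct
Aars, Iars and Tars thus hold both motifs, at places that do not overlap. A match is a description of letters in a window, and binding was not measured.

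Libraries held from 10692300 to 38618800 counts. All 4 tumors and 6 of the 12 ganglia held over 20000000 counts, and the other 6 ganglia held fewer. The tumors carried a lower summed level of sympathetic neuron markers than the transgene-free ganglia (2272 to 3951 against 5557 to 14420 CPM, 14 genes), of glial markers (123 to 148 against 679.6 to 2095 CPM, 10 genes) and of fibroblast markers (699 to 1746 against 3624 to 16628 CPM, 7 genes). They carried a higher level of proliferation genes (4728 to 5960 against 99.4 to 891 CPM, 14 genes). In these bulk samples, fewer cells of a type and less RNA per cell cannot be told apart, and the part of cell make-up in the results on synthetases was not tested. Replicate 2 of the Runx1t1 wild-type transgene-free ganglia stood apart, with 1076 CPM of lymphocyte markers against 4.27 to 17.1 CPM in the other 6 transgene-free ganglia. Tumor 3 held 4789 CPM of liver markers, against 1.07 to 52.3 CPM in the other tumors, and without it the same numbers of synthetase genes were higher against transgene-free ganglia (16 cytoplasmic and 9 mitochondrial). Myeloid markers summed to 186 to 586 CPM in tumors and to 28.4 to 91.5 CPM in the transgene-free ganglia other than replicate 2, which held 966 CPM. Runx1t1 RNA was not lower in every ganglion labelled heterozygous than in every wild-type one. It stood at 8.47 to 13.1 CPM in the transgene-free wild-type group and at 13.1 to 18.2 CPM in the transgene-free group labelled heterozygous. In MYCN ganglia it stood at 243, 23.4 and 111 CPM in wild-type replicates 1, 3 and 4 and at 25.3 and 49.9 CPM in those labelled heterozygous.

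Levels between genes were compared in TPM, which is scaled to gene length. In the 7 transgene-free ganglia the order of mean TPM was led by Gars, glycyl-tRNA synthetase, at 255 ± 55.6 TPM (SD), and by Lars2, the mitochondrial leucyl enzyme, at 228 ± 97.3 TPM. Their ranges overlapped, so this order of the leading pair is not larger than the spread. The place of Lars2 also depended on the libraries pooled. In the wild-type group it lay under Hars in replicate 1 (133 against 164 TPM) and over Gars in replicate 3 (316 against 196 TPM). Hars, Nars, Sars, Aars, Eprs and Kars followed, with means from 152 down to 91.9 TPM and neighbours that overlapped. The cytoplasmic genes below them reached down to Cars, cysteinyl-tRNA synthetase, at 31.8 ± 4.25 TPM. Apart from Lars2, the highest mitochondrial gene was Iars2 at 49.7 ± 7.20 TPM, and the lowest was Ears2, the mitochondrial glutamyl enzyme, at 2.95 ± 0.607 TPM. The median gene stood at 63.7 ± 4.87 TPM among the cytoplasmic enzymes and at 14.1 ± 1.12 TPM among the mitochondrial ones (SD over 7 ganglia).

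The comparison of tumors with transgene-free ganglia asked how the synthetase genes differ between tumor tissue and ganglia that carry no MYCN transgene. Most synthetase RNAs were higher in tumors, with Vars, Kars, Rars, Eprs, Iars and Farsa in front among cytoplasmic enzymes and Vars2 and Ears2 among mitochondrial ones. On TMM-normalized counts, 16 of 20 cytoplasmic genes rose and none fell, and 9 of 16 mitochondrial genes rose and 1, Iars2, fell (edgeR, adjusted p under 0.05). Of all 16665 genes tested, 61.4% were called, 30.6% as higher and 30.9% as lower. Values were positive for 19 cytoplasmic and 13 mitochondrial genes, against 48.4% of all genes. The median log2 fold change was 0.69 for cytoplasmic genes, 0.53 for mitochondrial genes and -0.06 for all genes. The 4 tumors lay above all 7 transgene-free ganglia for 14 cytoplasmic and 8 mitochondrial genes, against 22.7% of all genes. On this scale no synthetase gene had all tumors below all transgene-free ganglia, against 21.5% of all genes, whereas on TPM 4 did. The tumors lay above all 12 ganglia for 12 cytoplasmic and 5 mitochondrial genes, against 14.4% of all genes.

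The size of the split depended on the scale. On log2(TPM + 1), tested with limma, the median of all genes was -0.35 instead of -0.06. The median was 0.25 for cytoplasmic and 0.087 for mitochondrial genes there. There 8 cytoplasmic genes were higher and 2, Nars and Wars, were lower, and 5 mitochondrial genes were higher and 3, Aars2, Fars2 and Iars2, were lower. These are 18 of the 36, while 61.6% of all genes were called there, 19.4% as higher and 42.1% as lower. The 8 and the 5 were Vars, Kars, Rars, Eprs, Iars, Farsa, Mars and Tars, and Vars2, Ears2, Rars2, Tars2 and Pars2. On TPM the tumors lay above all transgene-free ganglia for 8 cytoplasmic and 2 mitochondrial genes, against 14.5% of all genes, and below them for Wars, Fars2, Iars2 and Wars2, against 30.9%. Once each library was centred on its median gene, the split was again 16 higher and none lower, and 9 higher and 1 lower, with 35.3% of all genes higher and 25.4% lower. The same split was found in the 10 libraries over 20000000 counts, and without the ribosomal RNA row Rn45s, which took 8.57 to 12.8% of counts in tumors and 2.15 to 5.64% in transgene-free ganglia. It also held without replicate 2 of the Runx1t1 wild-type transgene-free ganglia.

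**Figure D1:**
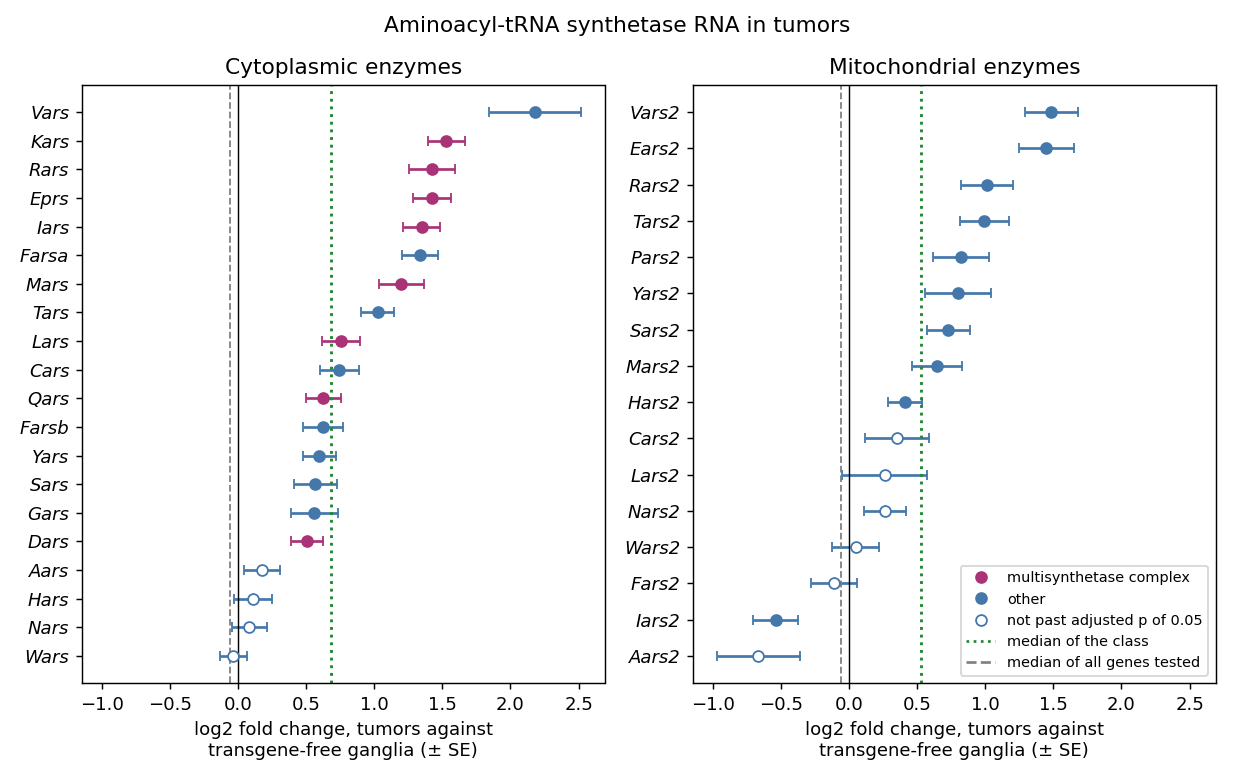
Log2 fold change of each synthetase gene in 4 tumors against 7 transgene-free ganglia, on TMM-normalized counts, with its SE as whiskers, cytoplasmic enzymes on the left and mitochondrial enzymes on the right. Filled points passed an adjusted p of 0.05 in edgeR, purple points are the multisynthetase complex, and lines mark the medians of the class (dotted) and of all genes (dashed). All 8 complex enzymes lie above 0. Points near 0 depend on scale: on TPM, Aars, Hars, Nars, Cars2, Hars2, Lars2, Nars2 and Wars2 lie below 0.

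All 8 enzymes of the multisynthetase complex rose in tumors, with a median log2 fold change of 1.27, and on CPM the tumors lay above every transgene-free ganglion for each of them, while on TPM this held for 5 and was lost for Dars, Lars and Qars. Of the 12 other cytoplasmic enzymes 8 rose, with a median of 0.58, and 6 did not overlap. Kars, lysyl-tRNA synthetase (GRCm38 chr8:111993443-112011323, minus strand), ran from 58.6 to 79.2 CPM in the transgene-free ganglia, with a median of 76.8 CPM, and stood at 182, 223, 209.8 and 238 CPM in tumors 1 to 4. The groups were far apart, and the log2 fold change was 1.53 (SE 0.14, adjusted p = 1.3e-06). Eprs, the fused glutamyl and prolyl enzyme (chr1:185363044-185428360, plus strand), ran from 183 to 216 CPM around a median of 186 CPM in the transgene-free ganglia, and stood at 464, 526, 504 and 588 CPM in tumors. Its log2 fold change was 1.42 (SE 0.14, adjusted p = 2.2e-06), and the groups did not overlap. Rars, the arginyl enzyme, ran from 36.6 to 45.2 CPM (median 43.1) in transgene-free ganglia and stood at 83.1, 130.5, 108 and 131 CPM in tumors, a log2 fold change of 1.43 (SE 0.17, adjusted p = 9.6e-06).

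Iars, the isoleucyl enzyme, ran from 67.2 to 82.3 CPM (median 74.7) in transgene-free ganglia and stood at 141, 214, 193 and 213 CPM in tumors. Tumor 1 was the lowest of the 4, and it still lay above every transgene-free ganglion, with a log2 fold change over the group of 1.35 (SE 0.14, adjusted p = 2.9e-06). The rise was smaller for Mars, which charges methionine (1.199, SE 0.16), Lars, which charges leucine (0.76, SE 0.14), Qars, which charges glutamine (0.63, SE 0.13), and Dars, which charges aspartate (0.51, SE 0.12). Adjusted p for these 4 ran from 2.7e-05 for Mars to 0.00175 for Dars. Qars stood at 95.7, 102, 94.7 and 113 CPM in tumors against 51.6 to 82.7 CPM (median 63.8) in transgene-free ganglia, where replicate 2 of the wild-type group was the highest. Lars, Qars and Dars did not pass the test on log2(TPM + 1).

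Among cytoplasmic enzymes outside the complex, Vars, valyl-tRNA synthetase (chr17:35000987-35016322, plus strand), had the largest log2 fold change of all 36 genes, 2.18 (SE 0.34, adjusted p = 7.3e-05). It stood at 247, 470.0, 354 and 369 CPM in tumors. In the transgene-free ganglia it ran from 56.4 to 184 CPM, with a median of 69.6 CPM. The value of 184 CPM was that of replicate 2 of the wild-type group, and the next highest was 74.5 CPM. Beside the lymphocyte markers, that library also held the most of the proliferation genes (891 CPM, against 99.4 to 165 CPM in the other 6) and of the interferon response genes (1148 against 141 to 213 CPM), and their part in the Vars value was not tested. Without that library the log2 fold change was 2.46. Farsa, the catalytic subunit of phenylalanyl-tRNA synthetase, ran from 28.3 to 37.0 CPM (median 30.2) in transgene-free ganglia and stood at 66.6, 93.5, 75.9 and 86.1 CPM in tumors, a log2 fold change of 1.34 (SE 0.13, adjusted p = 2.8e-06). Its partner subunit Farsb rose less, from a median of 34.1 CPM (30.5 to 43.4) to 43.9, 58.8, 52.5 and 69.2 CPM, a log2 fold change of 0.63 (SE 0.15, adjusted p = 0.0023). Tars, for threonine, rose by 1.03 (SE 0.12) on this scale. Cars, Yars, Sars and Gars rose by 0.56 to 0.75, and of these 4 the groups overlapped for Sars and Gars. Gars stood at 272, 383, 324 and 408 CPM in tumors against 164 to 295 CPM (median 243) in transgene-free ganglia (log2 fold change 0.56, SE 0.17, adjusted p = 0.012).

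The 4 cytoplasmic genes that did not pass the test were Aars, Hars, Nars and Wars, the alanyl, histidyl, asparaginyl and tryptophanyl enzymes. Aars stood at 149, 201, 191 and 157 CPM in tumors against 111 to 184 CPM (median 153) in transgene-free ganglia, a log2 fold change of 0.17 (SE 0.13, adjusted p = 0.27). Hars stood at 117, 127, 113 and 136 CPM against 73.3 to 143 CPM (median 120.2), a log2 fold change of 0.11 (SE 0.14, adjusted p = 0.50). Nars stood at 129.7, 144, 137 and 143 CPM against 97.1 to 156 CPM (median 135), a log2 fold change of 0.08 (SE 0.13, adjusted p = 0.60). All tumors lay within or close to the range of the transgene-free ganglia for these 3 genes, and the values turned negative on log2(TPM + 1), where Nars passed as lower (-0.33, limma, adjusted p = 0.037). Wars, which is also known as a gene raised by interferon, stood at 87.0, 78.8, 70.4 and 69.2 CPM in tumors against 69.5 to 89.6 CPM (median 76.7). Its log2 fold change of -0.03 (SE 0.10, adjusted p = 0.79) turned positive without Rn45s, with centred TPM and when any of 4 libraries was left out singly, and on log2(TPM + 1) it was -0.45 (limma, adjusted p = 0.0015). Aars overlaps Exosc6 on the same strand and Hars overlaps Hars2 on the opposite strand, and whether counting used the strand was not stated, so counts of such genes are uncertain. In all, 11 of the 36 genes overlap another protein-coding gene.

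**Figure D2:**
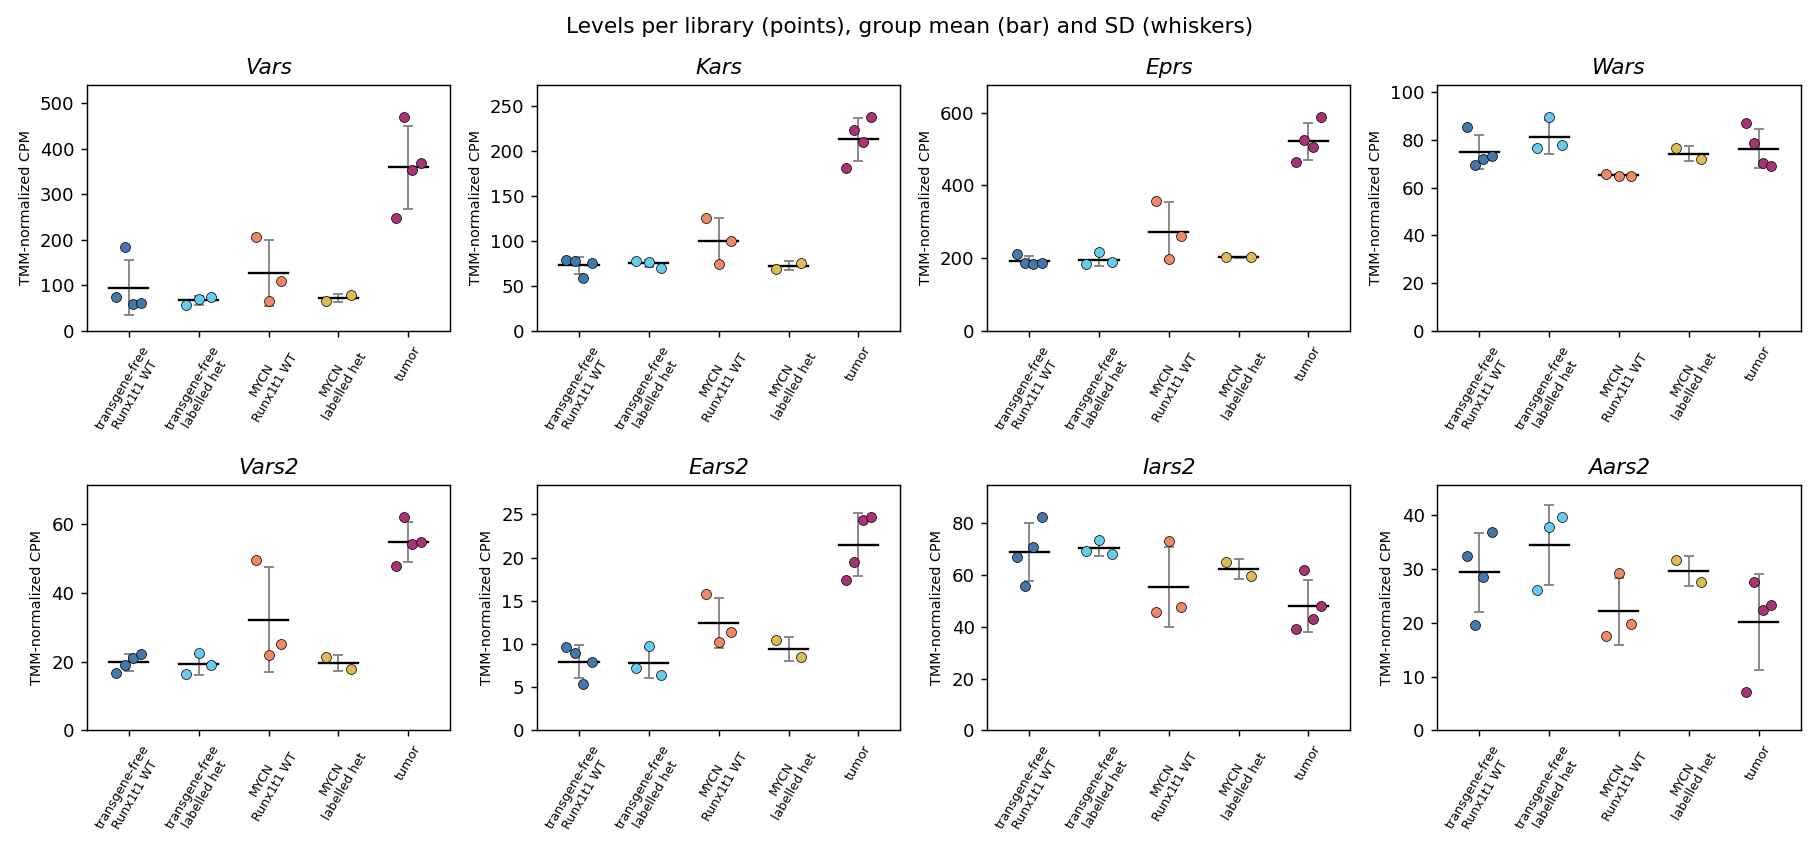
TMM-normalized CPM of 4 cytoplasmic genes (top) and 4 mitochondrial genes (bottom) in each of the 16 libraries, by group, with the group mean as a bar and the SD as whiskers. Vars, Kars, Eprs and Ears2 are higher in every tumor than in every ganglion, Vars2 overlaps through 1 MYCN ganglion, Wars overlaps between tumors and transgene-free ganglia, and Iars2 and Aars2 reach their lowest values in a tumor. On TPM, Wars is lower in tumors (limma).

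Among mitochondrial enzymes, the valyl and glutamyl ones rose the most. Vars2 (chr17:35655634-35667592, minus strand) ran from 16.3 to 22.4 CPM (median 19.0) in transgene-free ganglia and stood at 47.8, 62.1, 54.1 and 54.8 CPM in tumors, a log2 fold change of 1.49 (SE 0.20, adjusted p = 2.0e-05). Ears2 (chr7:122037213-122067263, minus strand), which overlaps Ubfd1 on the opposite strand, ran from 5.33 to 9.77 CPM (median 7.89) and stood at 17.4, 19.5, 24.4 and 24.7 CPM in tumors, a log2 fold change of 1.45 (SE 0.20, adjusted p = 3.1e-05). The groups did not overlap for either gene. Rars2 stood at 12.5, 21.0, 19.7 and 25.5 CPM in tumors against 7.44 to 11.9 CPM (median 10.4) in transgene-free ganglia, and Tars2 at 34.9, 52.7, 50.1 and 67.6 CPM against 22.4 to 30.2 CPM (median 27.1). Their log2 fold changes were 1.02 (SE 0.19, adjusted p = 4.0e-04) and 1.00 (SE 0.18, adjusted p = 2.6e-04), and tumor 1 was the lowest tumor for both. Pars2, the prolyl enzyme, stood at 7.53, 9.04, 8.60 and 10.6 CPM against 3.74 to 6.57 CPM (median 4.80), a log2 fold change of 0.82 (SE 0.21, adjusted p = 0.0034). Yars2, the tyrosyl enzyme, stood at 12.8, 18.6, 17.0 and 19.9 CPM against 7.47 to 12.3 CPM (median 9.98), a log2 fold change of 0.80 (SE 0.24, adjusted p = 0.0105). On CPM tumors and transgene-free ganglia did not overlap for either, while on TPM both overlapped. Sars2, Mars2 and Hars2 rose by 0.73, 0.65 and 0.41, and Hars2 overlapped between the groups and reached -0.01 on log2(TPM + 1).

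Iars2, the mitochondrial isoleucyl enzyme (chr1:185284726-185329396, minus strand), was the only synthetase gene called as lower in tumors on TMM-normalized counts. It stood at 39.1, 62.2, 42.9 and 48.0 CPM in tumors against 55.7 to 82.6 CPM (median 69.3) in transgene-free ganglia, a log2 fold change of -0.54 (SE 0.17, adjusted p = 0.012). The groups overlapped through tumor 2 on CPM but not on TPM, where tumors ran from 20.6 to 32.1 and transgene-free ganglia from 36.6 to 60.9. The gene Iars2 overlaps Rab3gap2 on the opposite strand. Its cytoplasmic counterpart Iars moved the other way. Aars2 had a larger negative value, -0.66 (SE 0.31), with an adjusted p of 0.074. It stood at 7.18, 27.5, 22.4 and 23.3 CPM in tumors against 19.7 to 39.7 CPM (median 32.4), so tumor 1 lay far under the others. The other tumors lay within the transgene-free range, so the size of the negative value rested partly on tumor 1. Aars2 passed as lower with a term for depth (-0.83, adjusted p = 0.037), without tumor 2 (-0.85, adjusted p = 0.044) and on log2(TPM + 1) (-1.13, limma adjusted p = 0.0053).

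The other 5 mitochondrial genes that did not pass were Cars2, Fars2, Lars2, Nars2 and Wars2. Cars2 stood at 5.28, 10.3, 10.6 and 7.58 CPM in tumors against 4.51 to 9.91 CPM (median 6.59) in transgene-free ganglia (log2 fold change 0.35, SE 0.23, adjusted p = 0.20). Nars2 stood at 9.94, 10.8, 11.3 and 10.1 CPM against 7.79 to 10.1 CPM (median 8.77), with a log2 fold change of 0.26 (SE 0.15, adjusted p = 0.15). Both overlapped between the groups. Wars2 ran from 9.59 to 13.8 CPM in tumors against 10.5 to 14.1 CPM (log2 fold change 0.05, SE 0.17), and Fars2 from 12.5 to 15.2 CPM against 13.0 to 17.7 CPM (-0.11, SE 0.17). Fars2 was lower on log2(TPM + 1), by -0.53 (limma, adjusted p = 0.012), and Cars2, Nars2 and Wars2 turned negative there without passing the test.

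Lars2 behaved apart from the others because its level went with library depth. In TPM it stood at 120 to 146 in the 6 libraries under 20000000 counts, all of them ganglia, at 194 to 349 in the 6 ganglia over it, and at 179 to 217 in the tumors. A fit with a term for depth gave Lars2 a log2 difference of 1.13 between deep and shallow libraries (SE 0.16, adjusted p = 0.0090). It was the only synthetase gene among the 43 genes past that test (0.258% of all genes). The tumor contrast of Lars2 was 0.26 (SE 0.31, adjusted p = 0.48) without the term, -0.09 with it and -0.13 in the libraries over 20000000 counts. These 6 libraries were the ganglia numbered replicate 1 or 2, and the 6 ganglia over 20000000 counts were numbered 3 or 4. Depth and replicate number thus cannot be told apart in the ganglia. What else set the 6 libraries apart was not given in the labels. For Kars the same term was -0.28 (SE 0.13, adjusted p = 0.51).

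**Figure D3:**
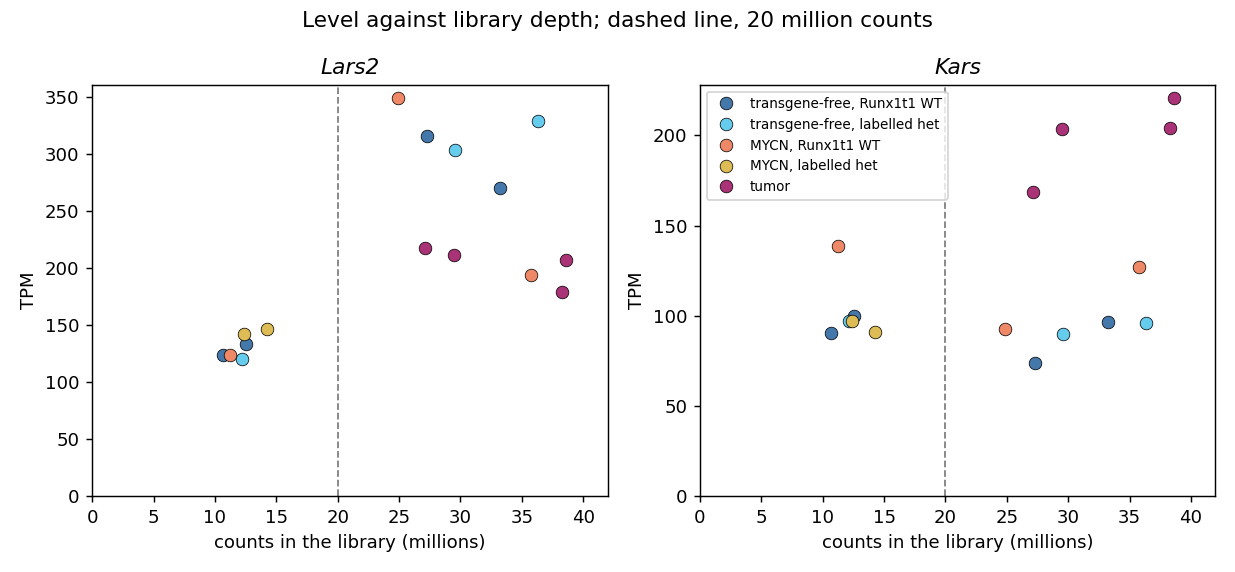
TPM of Lars2 (left) and Kars (right) in each library against the counts in that library, coloured by group. Lars2 lies between 120 and 146 TPM in all 6 libraries left of the dashed line at 20000000 counts and between 179 and 349 TPM right of it, while Kars separates the tumors instead.

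Within each library, the mean log2(TPM + 1) of cytoplasmic enzymes exceeded that of mitochondrial enzymes by 2.17 ± 0.125 in transgene-free ganglia (SD, n = 7, from 1.97 to 2.32) and by 2.53 ± 0.0368 in tumors (n = 4, from 2.49 to 2.58). The ranges did not overlap, and the tumor mean exceeded the mean of the 2 transgene-free groups by 0.350, or by 0.325 to 0.382 with any single library left out. It was 0.343 with Lars2 left out and 0.327 without Gars and Kars. Runx1t1 wild-type MYCN ganglia stood at 2.43, 2.02 and 2.41 for replicates 1, 3 and 4, and those labelled heterozygous at 2.25 and 2.30. The cytoplasmic mean alone was 6.15 ± 0.143 in transgene-free ganglia and 6.56 ± 0.163 in tumors (SD). The mitochondrial mean was 3.98 ± 0.0794 in transgene-free ganglia and 4.04 ± 0.162 in tumors, with ranges that overlapped. The gap between complex enzymes and the other cytoplasmic enzymes ran from -0.395 to -0.159 in transgene-free ganglia and from 0.0626 to 0.147 in tumors. In Runx1t1 wild-type MYCN ganglia it was -0.00359, -0.317 and -0.137, so replicates 1 and 4 lay between transgene-free ganglia and tumors while replicate 3 lay among the former. These gaps are descriptions without a test.

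**Figure D4:**
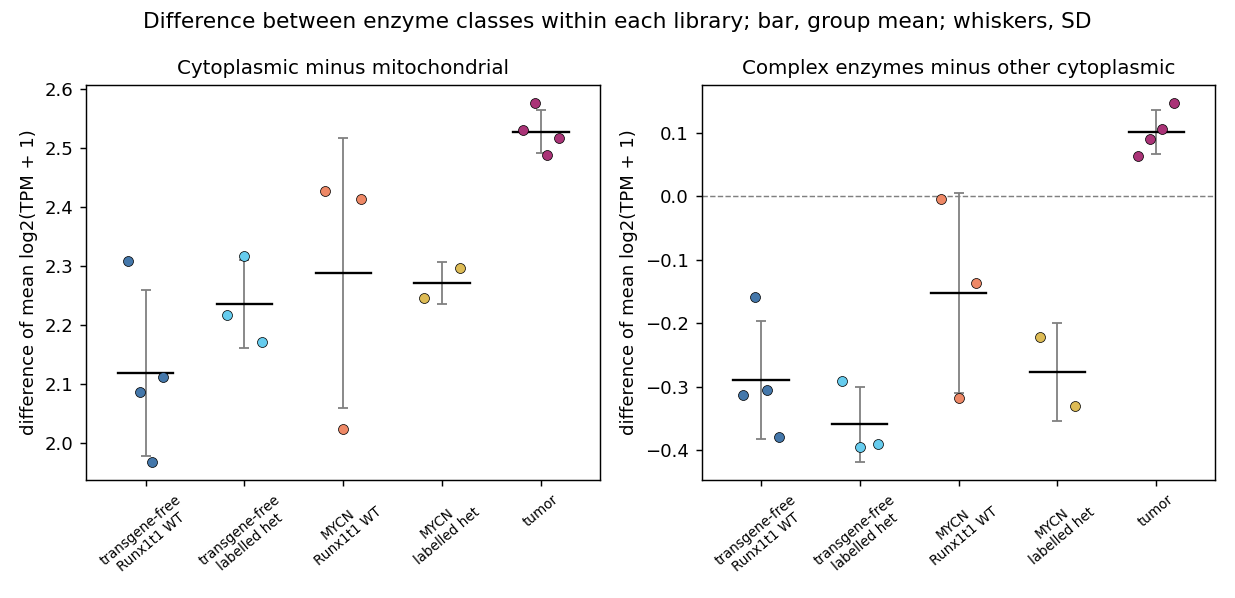
Difference of the mean log2(TPM + 1) between cytoplasmic and mitochondrial enzymes (left) and between complex enzymes and other cytoplasmic enzymes (right) in each of the 16 libraries, by group, with the mean as a bar and the SD as whiskers. The 4 tumors lie above all 12 ganglia in both panels, and Runx1t1 wild-type MYCN ganglia are the most spread out.

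In 13 pairs the symbols of the cytoplasmic and the mitochondrial gene differ only by the final 2, and the ratio of their TPM was taken in each library. It was higher in every tumor than in every transgene-free ganglion for 2 pairs, lower for none, and overlapped for 11. Iars to Iars2 went from a mean ratio of 0.864 (0.696 to 1.07) in transgene-free ganglia to 3.18 (2.74 to 3.57) in tumors, so the mitochondrial RNA led in most ganglia and the cytoplasmic RNA in all tumors. Aars to Aars2 went from 4.45 (3.66 to 5.13) to 9.70 (6.04 to 18.6). The valyl pair, where both genes rose, overlapped at 2.86 to 10.2 against 5.42 to 7.95. Lars to Lars2 stood at 0.143 to 0.451 against 0.229 to 0.422, and this is the only other pair in which the mitochondrial RNA exceeded the cytoplasmic one.

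The comparison of tumors with MYCN ganglia asked what separates the tumor from 2-week ganglia that carry the same transgene. Against Runx1t1 wild-type MYCN ganglia, 13 cytoplasmic and 7 mitochondrial genes were higher and none was lower (edgeR), while 34.5% of all genes were called and 14% were higher. Of the complex enzymes, 7 of 8 passed, all but Dars. Iars and Kars each had a log2 fold change of 1.09 (SE 0.17 and 0.17), Rars 1.02 (SE 0.22), Farsa 0.94 (SE 0.17) and Eprs 0.94 (SE 0.17), and Vars had 1.51 with a wide SE of 0.43. The counts rested on the 3 ganglia: 9 synthetase genes passed without replicate 3 and 8 without replicate 4, where 7.39% and 7.8% of all genes were higher, and 21 without replicate 1, where 18.9% were. Eprs, Farsa, Iars, Kars, Mars, Rars and Tars passed in all 3 of these fits. When the fit held no other groups, 11 passed, and 27.7% of all genes were called in either direction. On log2(TPM + 1) with limma, 6 were higher (Vars, Kars, Iars, Rars, Eprs and Farsa) and Hars2 and Iars2 were lower, while 7.24% of all genes were higher and 30% lower.

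Against MYCN ganglia labelled heterozygous, 15 cytoplasmic and 7 mitochondrial genes were higher in tumors and none was lower, while 45.5% of all genes were called and 22% were higher. All 8 complex enzymes passed, with a median log2 fold change of 1.21, against 7 of the 12 other cytoplasmic enzymes with a median of 0.56. Vars had a log2 fold change of 2.32 (SE 0.53, adjusted p = 0.0029), Kars 1.56 (SE 0.21, adjusted p = 6.4e-05), Farsa 1.48 (SE 0.20, adjusted p = 8.3e-05) and Pars2 1.44 (SE 0.31, adjusted p = 0.0021). Only 2 ganglia stand in this group, and 12 synthetase genes passed without its replicate 1 (9.27% of all genes higher). That fit leaves a single library in the group, which is assumed to vary like the other groups. On log2(TPM + 1) with limma, 10 were higher and Aars2, Iars2 and Wars were lower, while 13.4% of all genes were higher and 34.5% lower. The comparisons of tumors share the tumor libraries, so they are not independent of each other.

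In the ganglia themselves, the question was whether synthetase RNA already differs at 2 weeks with the transgene. In Runx1t1 wild-type ganglia, MYCN against transgene-free, no synthetase gene passed in edgeR or in DESeq2, although 0.936% of all genes passed in edgeR and 7.71% in DESeq2. At an unadjusted p under 0.05 there were 8 of the 36 in edgeR, a share close to the 19.8% of all genes in either direction. All 8 had positive values: Eprs, Farsa, Kars, Tars, Yars, Ears2, Hars2 and Vars2. The smallest adjusted p was 0.14, that of Eprs, with a log2 fold change of 0.50 (SE 0.17). In all, 28 of the 36 genes had positive values, against 46.4% of all genes, with a median of 0.24 for cytoplasmic, 0.09 for mitochondrial and -0.04 for all genes. The unadjusted edgeR count of 8 was 0 without MYCN replicate 1 and 13 without MYCN replicate 3. It was 2 without transgene-free replicate 3 and 0 when the fit held no other groups.

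The 3 Runx1t1 wild-type MYCN ganglia were not alike. Kars stood at 126, 74.3 and 100.1 CPM in replicates 1, 3 and 4, Eprs at 358, 198 and 260.5 CPM, Vars at 206, 64.6 and 110.1 CPM, and Vars2 at 49.6, 21.9 and 25.1 CPM. Replicate 1 was the highest in each case and replicate 3 lay within the transgene-free range. Replicate 1 exceeded all 7 transgene-free ganglia for 13 cytoplasmic and 8 mitochondrial genes (28.7% of all genes), replicate 4 for 10 and 3 (18.2%), and replicate 3 for none and 4 (10.8%). Of the 8 complex enzymes, 7, 6 and 0 were above that range in replicates 1, 4 and 3. The proliferation gene Mki67 ran in the same order, at 1649, 611 and 77.9 CPM, while glial markers (549.8, 1117 and 1970.5 CPM), fibroblast markers (2120.0, 6129.5 and 7536 CPM) and neuron markers (6206, 8479.6 and 9922 CPM) ran the other way. Replicate 1 was also the only one of these 3 ganglia under 20000000 counts, at 11240400 against 24874000 and 35779900 in replicates 3 and 4. Its Rn45s share was 8.80%, against 4.61% and 4.92% in replicates 3 and 4. The part of the markers, depth and Rn45s in the synthetase values of these replicates was not tested. Without replicate 3, 4 of the 36 synthetase genes passed in edgeR, a share close to the 10.9% of all genes that did: Eprs (0.69, adjusted p = 0.013), Kars (0.63, adjusted p = 0.021), Rars (0.62, adjusted p = 0.045) and Vars2 (0.91, adjusted p = 0.027). Without replicate 1 or without replicate 4, 0 genes passed in the whole table. Of the 16 mitochondrial genes, 4, 3 and 2 stood below the transgene-free range in replicates 1, 4 and 3, where 26.2%, 14.3% and 9.02% of all genes did. Iars2 stood at 45.6, 47.5 and 73.4 CPM in replicates 1, 4 and 3.

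**Figure D5:**
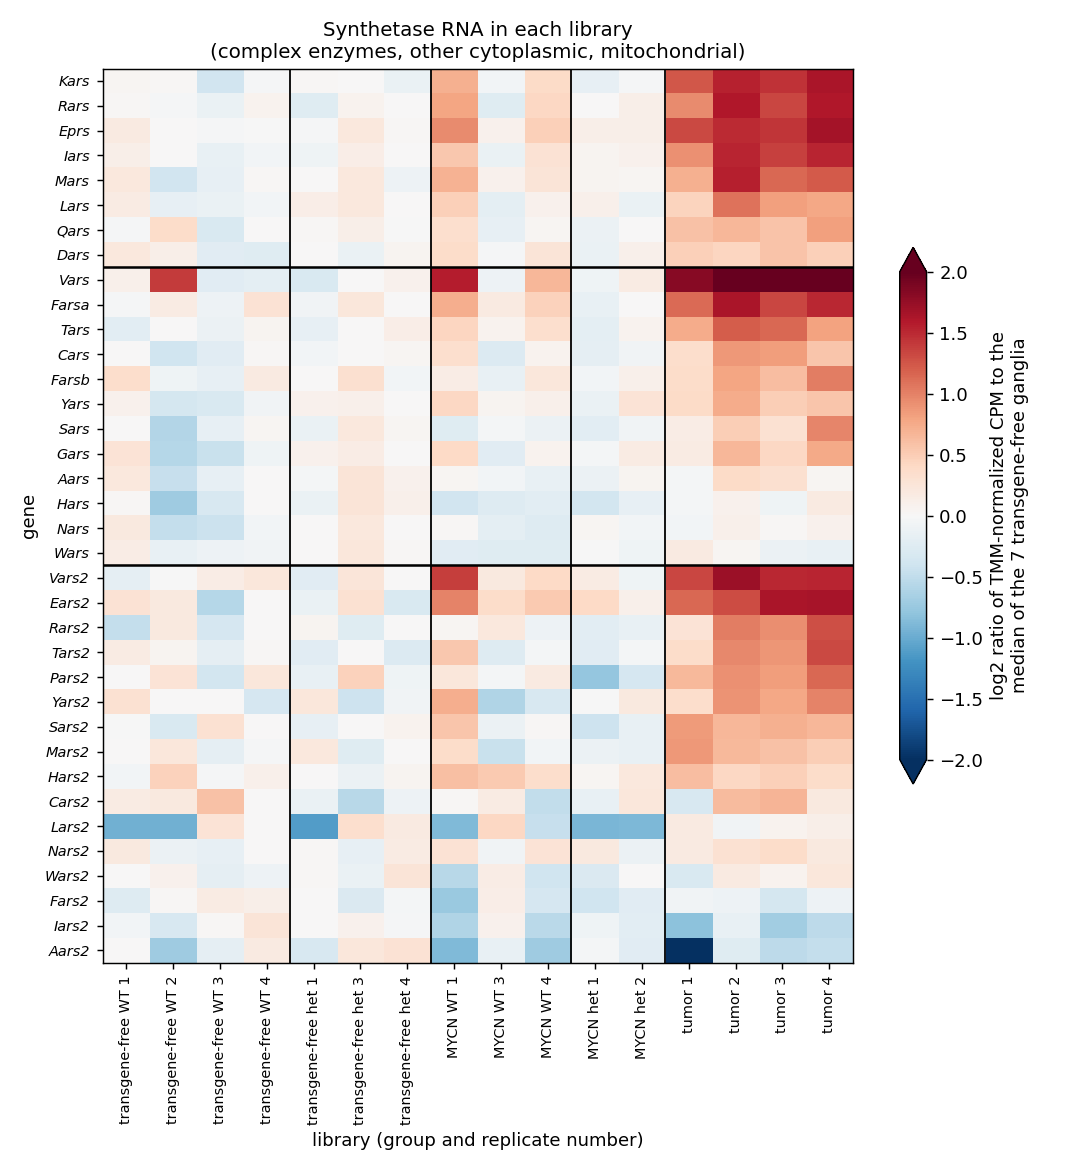
Log2 ratio of TMM-normalized CPM to the median of the 7 transgene-free ganglia for 36 synthetase genes (rows: complex enzymes, other cytoplasmic, mitochondrial) in 16 libraries (columns, by group), with the colour scale ending at 2 in either direction. The tumors are high for complex enzymes throughout, Runx1t1 wild-type MYCN ganglia differ among their 3 replicates, and Lars2 is low in 6 ganglia. On log2(TPM + 1), the tumor values of Aars, Hars, Nars, Cars2, Hars2, Lars2, Nars2 and Wars2 turn negative, and of these 8 only Nars passed (limma).

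Among ganglia labelled heterozygous, MYCN and transgene-free libraries differed in no synthetase gene past the threshold, in edgeR or DESeq2. In edgeR none had an unadjusted p under 0.05, as 1.45% of all genes did, and in DESeq2 1 had, Pars2, as 2.23% of all genes did. Across these 2 MYCN ganglia, Kars stood at 68.6 and 75.8 CPM, Eprs at 203 and 202 CPM, and Vars at 65.8 and 78.3 CPM, all within the range of transgene-free ganglia. The Vars value of 78.3 CPM did so only through replicate 2 of the wild-type group (184 CPM), as the next highest was 74.5 CPM. The 2 libraries exceeded that range for 1 and 2 of the 36 synthetase genes, against 8.24% and 11.2% of all genes. In edgeR no adjusted p was under 0.05 for any of the 16665 genes in this comparison, and DESeq2 called 14 of them, so it cannot single out synthetases.

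The Runx1t1 label was compared with and without the transgene. In MYCN ganglia, heterozygous against wild-type, no synthetase gene passed in edgeR or DESeq2 (0.012% of all genes did in edgeR and 1.58% in DESeq2). Unadjusted, 3 were under 0.05 in edgeR and 5 in DESeq2, all with negative values, against 12.6% and 15.5% of all genes. The 3 in edgeR were Farsa -0.54 (SE 0.20), Kars -0.47 (SE 0.21) and Vars2 -0.71 (SE 0.30). The wild-type side of this comparison holds the uneven replicates described above. The unadjusted edgeR count of 3 was 8 without wild-type replicate 3, 0 without wild-type replicate 1 and 7 with the depth term. In transgene-free ganglia no synthetase gene passed in edgeR or DESeq2 and none had an unadjusted p under 0.05 (4.12% of all genes). The difference between the transgene effects in the wild-type and the heterozygous background was tested as an interaction, and no synthetase gene passed in edgeR or DESeq2, nor unadjusted in edgeR (5.62% of all genes unadjusted).

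Other genes around tRNA charging were read from lists in the comparison of tumors with transgene-free ganglia. Of the complex scaffold genes, Aimp1 and Aimp2 rose by 1.36 (SE 0.15) and 1.04 (SE 0.15), and Eef1e1 had 0.07 (SE 0.21). Aimp1 stood at 67.6, 85.0, 76.0 and 121 CPM in tumors, above all transgene-free ganglia. Of the 3 genes of the mitochondrial glutaminyl-tRNA amidotransferase, which stands in for a mitochondrial Qars, Gatc and Gatb rose by 1.12 (SE 0.16) and 0.72 (SE 0.19), and Qrsl1 had -0.26 (SE 0.13). Beside 30.6% higher and 30.9% lower among all genes, 3 further lists were counted. Of 24 genes for tRNA processing and export 18 rose and 1, Elac1, fell, with a median of 0.76, and the ribonuclease P subunit genes Rpp25 and Pop1 rose the most (3.03 and 1.88). Of 22 genes for subunits and regulators of RNA polymerase III, which transcribes tRNA genes among others, 19 rose and 1 fell, with a median of 0.84. This list is not limited to factors that act at tRNA genes. The gene that fell was Polr3g (-1.67, SE 0.25), which encodes an alternative subunit, while Gtf3a, which encodes a transcription factor of this polymerase, rose the most at 1.54 (SE 0.25). Of 12 mitochondrial translation factors 9 rose and none fell, with a median of 0.53, among them the elongation factor Tufm at 0.95 (SE 0.11).

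The ATF4 list did not move one way. Of 30 amino acid response genes that are no synthetases, 12 rose and 7 fell, with a median of 0.15, beside 30.6% higher and 30.9% lower among all genes. Psat1 and Phgdh, successive enzymes of serine synthesis, went in opposite directions. Psat1 rose by 2.22 (SE 0.19), standing at 98.0, 125, 107 and 101.5 CPM in tumors, and Phgdh fell, with a log2 fold change of -2.50 (SE 0.32), standing at 9.12, 8.81, 7.71 and 3.48 CPM. Aldh18a1, of proline synthesis, rose by 2.30 (SE 0.27). Asns, asparagine synthetase and a standard ATF4 target, had -0.31 (SE 0.19, adjusted p = 0.17), and Trib3 fell, with -0.92 (SE 0.33, adjusted p = 0.028). Atf4 itself rose by 0.33 (SE 0.13, adjusted p = 0.045). Asns, Trib3 and Atf4 were picked after their values were seen. The 5 synthetase genes with TGATGNAA in their window had log2 fold changes from 0.17 to 1.35 with a median of 0.60, against 0.64 for those with a window without it. Those with CACGTG ran from 0.17 to 1.45 with a median of 1.03, against 0.61. Each of these groups holds only 5 genes, and no test was made. The 9 genes without a window, Vars and Rars among them, are on neither side of these comparisons.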

How the data were processed

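Total RNA of dissected celiac ganglia and of tumors was made into stranded total RNA libraries by the authors, whereas the labels name polyA RNA. Reads were aligned by the authors to mm10 with STAR and summed per gene with RSEM, and they deposited expected counts, not normalized, and TPM, which RSEM scales to gene length and to the same sum per library. Strand use in counting and the annotation were not given in the sources used here. The header word Hom was read as homozygous wild type for Runx1t1.

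Expected counts were rounded. In R 4.3.3, edgeR 4.0.16 filtered genes by group (filterByExpr, 16665 of 24411 kept), TMM-normalized them, and a quasi-likelihood model held all 5 groups. P-values of its 8 contrasts were adjusted over all genes (Benjamini-Hochberg, threshold 0.05). Transgene-free ganglia are the mean of both such groups. Levels are TMM-normalized CPM, and TPM where genes are compared. SE of a log2 fold change is its size over the root of F. The 36 genes and all lists were chosen with earlier results of these data known. The text gives library or group values for the 6 most changed genes called in each class, every gene that did not pass or went against its class, Gars, Kars, Qars, Lars2 and Wars, and at most 6 genes of a list. Farsb, the partner subunit of Farsa, was added after its values were seen. Cytoplasmic and mitochondrial classes were compared without a test.

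Alternatives were upper-quartile normalization, DESeq2 1.42.0, no filter or at least 10 counts in every library, a minimum log2 fold change of 1, a replicate block, only the groups compared, a depth term at 20000000 counts, no Rn45s and leaving out each library. limma 3.58.1 on log2(TPM + 1), with and without centring, the libraries over 20000000 counts and the overlap of groups on TPM were chosen after seeing the data. Depths from 10692300 to 38618800 counts and 2 to 4 libraries per group limit the precision. Gene positions are GENCODE vM21 (GRCm38). Promoter windows are RefSeq GRCm38.p6, where 20 of the 28 windows matched an annotated transcript in the same orientation and none in the other. An item withheld from this text is not reported here.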

Additional observations from a re-analysis of the deposited data

Results flagged for a closer look

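Of 72 groups of 4 libraries examined for a library far from the other 3 (36 genes in 2 groups), 3 held such a library. Chance alone gives about 1 in 20, so this count is no larger than chance would give. Vars in replicate 2 of the Runx1t1 wild-type transgene-free ganglia stood at 100.32 TPM, against 35.5 to 44.0 TPM in the other 3. The same library held the lymphocyte markers given above. Iars in tumor 1 stood at 59.31 TPM, against 84.1 to 88.9 TPM in the other tumors, and Nars in the same tumor at 93.3 TPM, against 101.6 to 102.88 TPM. Without tumor 1 the log2 fold change against transgene-free ganglia was 1.47 for Iars (1.35 with it) and 0.11 for Nars (0.08 with it).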

How the results depend on the processing

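The counts of synthetase genes called that moved by over 1.5 times, and the values that changed sign, are given here, and the cause of each change was not tested. Upper-quartile normalization, DESeq2, both filters on counts, the depth term and leaving out Rn45s moved none of these counts that far. With a minimum log2 fold change of 1, 8 genes passed in tumors against transgene-free ganglia (6 cytoplasmic and 2 mitochondrial higher), 0 against Runx1t1 wild-type MYCN ganglia and 3 against those labelled heterozygous, where 28.3%, 8.71% and 17.5% of all genes did. With limma on log2(TPM + 1), 8 cytoplasmic and 5 mitochondrial genes were higher against transgene-free ganglia, where 19.4% of all genes were, and 8 and 13 genes passed against the 2 MYCN groups, where 37.2% and 47.9% of all genes did. With only the groups compared, 11 passed against Runx1t1 wild-type MYCN ganglia (27.7% of all genes). With any single library left out, 26 to 27 genes passed against transgene-free ganglia (16 cytoplasmic and 9 mitochondrial higher throughout), 8 to 21 and 12 to 23 against the 2 MYCN groups, and 0 to 4 between both kinds of Runx1t1 wild-type ganglia.

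Values changed sign on log2(TPM + 1) for Aars (-0.25), Hars (-0.31), Nars (-0.33), Cars2 (-0.11), Hars2 (-0.012), Lars2 (-0.052), Nars2 (-0.14) and Wars2 (-0.33). Lars2 also did so with the depth term (-0.093) and over 20000000 counts (-0.13), and Wars without Rn45s (0.025) and with centred TPM (0.056). With single libraries left out, Wars ran from -0.10 to 0.012 and Wars2 from -0.0090 to 0.15.

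Same-numbered libraries of different groups did not deviate together (25 pairs, r from -0.49 to 0.33), so no pairing by number was seen. In the ganglia the numbers did follow depth: replicates 1 and 2 held under 20000000 counts and replicates 3 and 4 held more. With a replicate block, 26, 16 and 21 genes passed in the tumor contrasts, where 59.8%, 30.2% and 45.5% of all genes did, and 0 between ganglia. No value over 20000000 counts could be had for contrasts with the ganglia labelled MYCN and Runx1t1 heterozygous, which hold no such library. Few libraries per group and shallow ganglia limit what could be detected there.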
